A study of Caenorhabditis elegans with 8 samples.

Results

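The early zygotic genes of Caenorhabditis elegans were followed in RNA from whole adult worms. They were taken as the genes named sdz, vet or pes with a number, together with end-1, end-3, med-1 and med-2. Of 48 genes so named in the deposited counts of replicate 2, 46 were also counted in replicate 1, out of 18339 genes counted in both. They comprised 31 sdz genes, 3 vet genes, 8 pes genes and the 4 end and med genes, and no measured value is part of the rule. The remaining 2, sdz-32 and the annotated pseudogene sdz-34, stood in the replicate 2 counts only and entered no comparison. The reference annotation names sdz-2 as lido-2.

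The study compared wild-type strain N2 with strain MT15501, a mir-83 mutant, at adult day 4 and adult day 12. mir-83 encodes a microRNA, a short RNA that represses messages. All 4 groups were grown at 20 °C on agar plates that contained FuDR, an inhibitor of DNA synthesis used to stop the production of progeny, with OP50 bacteria as food that was washed off before extraction. Each group held 2 libraries, called replicates 1 and 2, and 1 mutant strain stood for the genotype, so that a change at mir-83 and any other difference of that strain cannot be told apart. The labels do not state that the replicates were separate cultures. The p-values therefore reflect the spread among these particular samples, and that spread may be technical. The mir-83 locus itself was not analysed here.

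In C. elegans the oocyte supplies the first messages and proteins of the embryo, and transcription from the embryo's own genome starts within the first few cell divisions. The maternal factor SKN-1 then switches on med-1 and med-2, which encode GATA-type factors, and these in turn act on end-1 and end-3, GATA factor genes that commit a cell to endoderm. The sdz genes were named as zygotic transcripts that depend on SKN-1, and the vet genes as very early transcripts. The pes genes were named for patterned expression seen with promoter fusions, which is a looser criterion: pes-10 is a classic marker of the onset of zygotic transcription and pes-1 encodes a forkhead factor of early lineages, whereas pes-7 encodes a relative of the IQGAP scaffold proteins and pes-9 a predicted dipeptidase. Adult hermaphrodites can hold embryos in the uterus, so RNA of whole worms can include that of embryos. Fewer embryos and less RNA of a gene per embryo cannot be told apart in whole worms.

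Libraries held 20270542 to 41181094 reads. Levels are CPM, read counts per library scaled to a common depth, on library sizes adjusted by TMM, a method that assumes most genes to be unchanged. For the young mutants the TMM factors were 0.644 and 0.596, whereas those of all remaining libraries lay from 1.08 to 1.23. The mir-83 day 4 group thus stood apart and every contrast with it rests on that scaling. With plain library sizes the median log2 fold change of all tested genes at day 4 moved from -0.14 to -0.99. Of the 46 genes 41 passed the filter on low counts. The other 5 (med-1, med-2, sdz-12, sdz-13 and sdz-20) averaged 4.88 reads per library or fewer and were described only.

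The genes differed widely in level. Per kilobase of transcript, sdz-27 led in N2 day 4 with a mean level of 508 CPM per kb, followed by pes-9 at 76.0, pes-23 at 49.5, sdz-25 at 28.2 and sdz-28 at 12.2. The GATA factor genes stood far lower, with end-1 at 1.30, end-3 at 1.06, med-2 at 0.277 and med-1 at 0.235 CPM per kb. As many as 16 of the 46 lay on chromosome II, 34.8% of them against 17.6% of all genes counted in both replicates. Of these, 11 lay in its first 4 Mb, between positions 658669 and 3877974 of the WBcel235 assembly, which is 23.9% of the group against 4.91% of all genes. The 11 were sdz-4, sdz-5, sdz-7, sdz-9, sdz-10, sdz-11, sdz-12, sdz-18, sdz-24, sdz-28 and sdz-35. The median length of the longest transcript was 1137 bases against 1223 for all genes counted in both replicates.

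**Figure D1:**
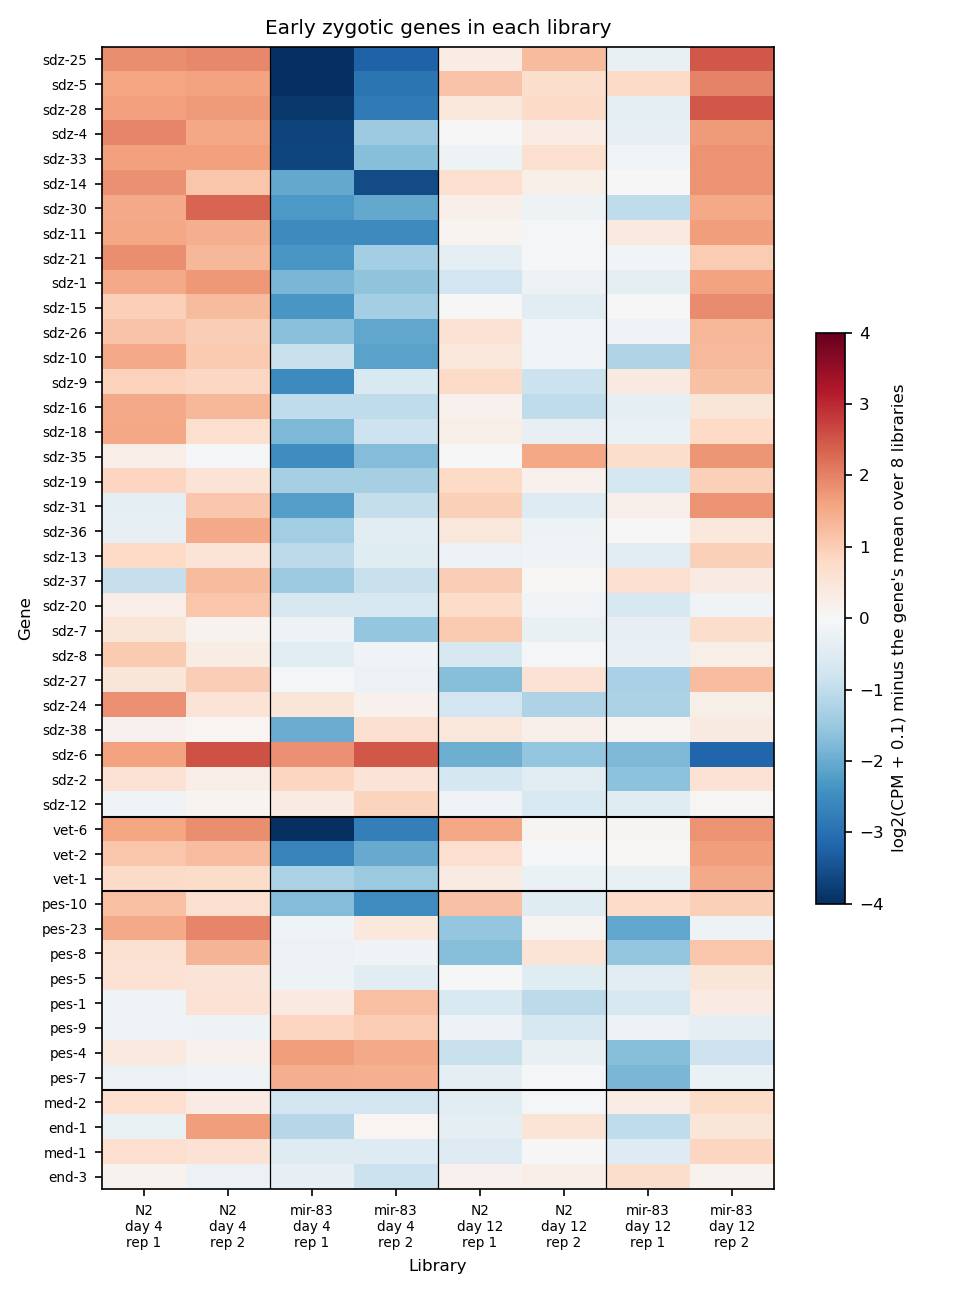
Colour gives log2(CPM + 0.1) of each of the 46 genes minus its own mean over the 8 libraries, with genes in rows, grouped as sdz, vet, pes and end or med genes, and libraries in columns. Most sdz and vet rows are blue in both mir-83 day 4 libraries and many are red in mir-83 day 12 replicate 2, while pes-4, pes-7 and pes-9 are red in mir-83 day 4.

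The comparison of the strains at day 4 asks what the mutant changed in young adults. Early zygotic messages stood lower in the mutant: 14 genes fell, 1 rose and 26 of the 41 tested did not pass the threshold (edgeR quasi-likelihood test, Benjamini-Hochberg adjustment over all 15874 tested genes, adjusted p under 0.05). Among all tested genes 2.62% fell, 4.42% rose and 7.04% were called in either direction. The 14 comprised 11 sdz genes, vet-2, vet-6 and pes-10. In CPM, both mutant libraries lay below both N2 libraries in 36 of the 46 genes and above both in 4, where 35.4% and 29.4% of all tested genes did so. On plain library sizes the mutant libraries lay below N2 in 41 of the 46 and above in 3, against 64.5% and 9.87% of all tested genes, so that most of the transcriptome then lay below too. On that scale 20 of the 41 fell and 0 rose, and of all tested genes 210 rose and 3825 fell, in place of 702 and 416. DESeq2 called 22 of the 41, 3 higher and 19 lower, and of all 15874 tested genes 1502 higher and 1128 lower. The median log2 ratio over all 46 was -1.94 between the replicate 1 libraries and -1.71 between the replicate 2 libraries, against -0.13 and -0.07 over all tested genes. In 24 of the 46 genes, or 52.2%, both mir-83 day 4 libraries lay below all 6 other libraries, and 22.1% of all tested genes did so.

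The largest group was the sdz genes, of which 11 of 28 tested fell and 0 rose. The gene sdz-25 had 27.1 and 28.7 CPM in N2 and 0.290 and 0.702 in mir-83 at day 4, and 9.26 and 18.0 in N2 and 6.01 and 42.6 in mir-83 at day 12. Both mir-83 day 4 libraries were far below the other 6, and the log2 fold change at day 4 was -6.05 ± 0.80 (adjusted p = 0.0211). A copy of sdz-25 in the opposite orientation, M116.1, lies beside it on chromosome IV (8410578 to 8412167, plus strand, against 8405022 to 8406611, minus strand) and had nearly the same read counts in every library, for example 884 against 984 in N2 day 4 replicate 2, so how reads divide between the copies is uncertain. On chromosome II, sdz-28 (2131070 to 2132475) had 14.5 and 14.9 CPM in N2 and 0.217 and 0.562 in mir-83 at day 4, and 6.21 and 7.84 in N2 and 3.56 and 25.9 in mir-83 at day 12. Its log2 fold change at day 4 was -5.43 ± 0.88 (adjusted p = 0.0221) and its groups did not overlap. At 3008700 on the same arm, sdz-5 had 8.43 and 8.62 CPM in N2 and 0 and 0.281 in mir-83 at day 4, and 6.24 and 4.58 in N2 and 4.80 and 11.4 in mir-83 at day 12. Mutant worms at day 4 gave 0 reads of sdz-5 in replicate 1, and the log2 fold change was -5.88 ± 1.00 (adjusted p = 0.0244).

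Of the other sdz genes that fell, sdz-33 had 9.52 and 9.50 CPM in N2 and 0.145 and 0.843 in mir-83 at day 4, and 2.59 and 4.71 in N2 and 2.75 and 10.7 in mir-83 at day 12, a log2 fold change at day 4 of -4.58 ± 0.80. Values of sdz-14 were 12.0 and 7.17 CPM in N2 and 0.725 and 0.187 in mir-83 at day 4, and 5.26 and 3.89 in N2 and 3.29 and 11.7 in mir-83 at day 12, with a day 4 change of -4.45 ± 0.94; 72 bases of its exons overlap the non-coding gene linc-18 on the other strand. For sdz-21 they were 9.65 and 6.64 CPM in N2 and 0.435 and 0.936 in mir-83 at day 4, and 1.98 and 2.51 in N2 and 2.37 and 5.27 in mir-83 at day 12, with -3.66 ± 0.71. All of these had mutant day 4 values below every other library. Levels of sdz-26 were 5.26 and 4.66 CPM in N2 and 0.652 and 0.468 in mir-83 at day 4, and 3.54 and 2.16 in N2 and 2.08 and 5.97 in mir-83 at day 12 (-3.15 ± 0.77 at day 4). Levels of sdz-4 were 4.91 and 3.70 CPM in N2 and 0 and 0.375 in mir-83 at day 4, and 1.21 and 1.49 in N2 and 0.943 and 4.10 in mir-83 at day 12 (-4.78 ± 1.15). Levels of sdz-30 were 3.35 and 5.85 CPM in N2 and 0.145 and 0.187 in mir-83 at day 4, and 1.28 and 0.933 in N2 and 0.485 and 3.29 in mir-83 at day 12 (-4.77 ± 1.03). In these genes too the day 4 groups were separate. At lower counts, sdz-1, of which 42 exon bases overlap B0303.7 on the other strand, had 2.39 and 2.83 CPM in N2 and 0.145 and 0.187 in mir-83 at day 4, and 0.411 and 0.644 in N2 and 0.566 and 2.54 in mir-83 at day 12 (-4.03 ± 0.90). No read of sdz-11 was seen in mir-83 day 4, where N2 day 4 had 1.61 and 1.51 CPM, N2 day 12 0.539 and 0.467 and mir-83 day 12 0.674 and 1.80. The pooled N2 day 4 level of sdz-11 was 18.2-fold a floor of 3 counts over the mir-83 day 4 group, leaving out the counting error of N2. Its fall at day 4 passed the threshold (adjusted p = 0.0302). Adjusted p-values of the 11 sdz genes ran from 0.0211 for sdz-25 to 0.0493 for sdz-26.

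The sdz genes were not uniform. The most abundant, sdz-27, had 297 and 417 CPM in N2 and 205 and 179 in mir-83 at day 4, and 65.4 and 316 in N2 and 87.0 and 498 in mir-83 at day 12, and its day 4 change of -0.75 ± 0.61 did not pass (adjusted p = 0.469). For sdz-35 the values were 3.52 and 2.80 CPM in N2 and 0.435 and 0.796 in mir-83 at day 4, and 2.87 and 8.55 in N2 and 4.74 and 10.1 in mir-83 at day 12, with a day 4 change of -2.50 ± 0.69 that missed the threshold (adjusted p = 0.0647). The low-count sdz-15 had 0.869 and 1.11 CPM in N2 and 0 and 0.0936 in mir-83 at day 4, and 0.411 and 0.267 in N2 and 0.404 and 1.78 in mir-83 at day 12 (-4.26 ± 1.26 at day 4, adjusted p = 0.0773). In both sdz-35 and sdz-15 the mutant day 4 libraries were nevertheless below all 6 others. Of sdz-8 the values were 6.17 and 3.67 CPM in N2 and 2.10 and 2.67 in mir-83 at day 4, and 1.85 and 2.80 in N2 and 2.37 and 3.49 in mir-83 at day 12, and of sdz-24 7.69 and 3.09 CPM in N2 and 2.97 and 2.34 in mir-83 at day 4, and 1.18 and 0.822 in N2 and 0.809 and 2.44 in mir-83 at day 12; neither passed at day 4. By contrast, sdz-6 had 3.78 and 7.40 CPM in N2 and 4.42 and 7.12 in mir-83 at day 4, and 0.231 and 0.333 in N2 and 0.270 and 0.0404 in mir-83 at day 12, low at day 12 in both strains and overlapping between strains at day 4 (change 0.05 ± 0.80, adjusted p = 0.973). In sdz-2 (lido-2) the day 4 libraries had 2.13 and 1.69 CPM in N2 and 2.61 and 2.06 in mir-83, and these overlapped. The low-count sdz-12 was the one sdz gene with both mutant libraries above N2 at day 4 (0.130 and 0.175 CPM in N2 and 0.217 and 0.375 in mir-83), an order that did not hold on plain library sizes. Besides sdz-11, the genes sdz-16, sdz-19 and sdz-20 gave 0 reads in both mir-83 day 4 libraries. Their pooled N2 day 4 levels of 0.436, 0.296 and 0.174 CPM were 5.11-fold, 3.47-fold and 2.04-fold the floor of 3 counts, again without the counting error of N2. Zero counts were more frequent in the mir-83 day 4 libraries for all genes: 1041 and 649 of all tested genes had 0 reads there, against 48 to 201 in the other 6 libraries. Of the 41 tested early zygotic genes 3, or 7.32%, had 0 reads in both mir-83 day 4 libraries, where 2.62% of all tested genes did. The remaining 9 sdz genes ranged from 0.0435 to 2.35 CPM in N2 and from 0 to 0.515 in mir-83 at day 4. Of these, sdz-7, sdz-9, sdz-10, sdz-13, sdz-18, sdz-31 and sdz-36 were lower in both mutant libraries without passing (sdz-13 was not tested), and sdz-37 and sdz-38 overlapped.

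All 3 vet genes were lower in both mutant day 4 libraries, and 2 passed. The gene vet-2 had 22.3 and 24.2 CPM in N2 and 1.52 and 2.43 in mir-83 at day 4, and 16.3 and 9.75 in N2 and 10.5 and 33.1 in mir-83 at day 12, a log2 fold change of -3.59 ± 0.64 at day 4 (adjusted p = 0.0262). For vet-6 the values were 5.65 and 6.93 CPM in N2 and 0 and 0.187 in mir-83 at day 4, and 5.59 and 1.98 in N2 and 1.97 and 6.68 in mir-83 at day 12, with -5.93 ± 1.21 (adjusted p = 0.0314). In vet-1 they were 12.8 and 12.6 CPM in N2 and 3.04 and 2.62 in mir-83 at day 4, and 9.52 and 6.27 in N2 and 6.06 and 21.5 in mir-83 at day 12, and its change of -2.16 ± 0.66 missed the threshold (adjusted p = 0.0825). All 3 had mutant day 4 values below the other 6 libraries.

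The pes genes split at day 4, with 1 lower, 1 higher and 6 not past the threshold in edgeR. DESeq2 called 2 lower and 3 higher, and plain library sizes gave 3 lower and 0 higher. The classic early marker pes-10 had 1.78 and 1.17 CPM in N2 and 0.145 and 0.0468 in mir-83 at day 4, and 1.75 and 0.489 in N2 and 1.27 and 1.47 in mir-83 at day 12 and fell, with a log2 fold change of -4.0 ± 0.98 (adjusted p = 0.0488). The dipeptidase gene pes-9 had 118 and 117 CPM in N2 and 246 and 269 in mir-83 at day 4, and 114 and 85.6 in N2 and 113 and 104 in mir-83 at day 12. It rose by 1.14 ± 0.24 (adjusted p = 0.035), and the change was 0.28 with plain library sizes, where it did not pass (adjusted p = 0.285). The IQGAP relative pes-7 had 14.1 and 14.8 CPM in N2 and 44.8 and 44.3 in mir-83 at day 4, and 12.9 and 15.9 in N2 and 4.58 and 13.7 in mir-83 at day 12, and pes-4 had 20.0 and 17.0 CPM in N2 and 48.9 and 43.4 in mir-83 at day 4, and 8.08 and 12.3 in N2 and 4.55 and 8.56 in mir-83 at day 12. Their changes of 1.63 ± 0.48 and 1.32 ± 0.43 did not pass (adjusted p = 0.0743 and adjusted p = 0.0968), although both mutant libraries were above all 6 others. In these 3 genes the mutant day 4 values lay on the other side of N2 from those of the called sdz and vet genes. Values of pes-23 were 69.0 and 95.0 CPM in N2 and 21.6 and 32.7 in mir-83 at day 4, and 8.16 and 26.3 in N2 and 5.69 and 21.0 in mir-83 at day 12 (-1.62 ± 0.43, adjusted p = 0.0605). Values of pes-5 were 18.1 and 17.6 CPM in N2 and 10.5 and 8.80 in mir-83 at day 4, and 12.2 and 8.71 in N2 and 9.16 and 17.1 in mir-83 at day 12 (-0.88 ± 0.47). Values of pes-8 were 10.9 and 18.6 CPM in N2 and 6.09 and 6.51 in mir-83 at day 4, and 2.13 and 10.4 in N2 and 2.32 and 15.6 in mir-83 at day 12 (-1.08 ± 0.69). In pes-23, pes-5 and pes-8 the mutant day 4 libraries were below N2 without passing. The forkhead gene pes-1 had 1.70 and 2.91 CPM in N2 and 2.54 and 4.49 in mir-83 at day 4, and 1.21 and 0.867 in N2 and 1.19 and 2.42 in mir-83 at day 12, and its day 4 groups overlapped.

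The endoderm GATA factor genes were near the limit of these libraries. The gene end-1 had 0.348 and 1.60 CPM in N2 and 0.145 and 0.468 in mir-83 at day 4, and 0.308 and 0.689 in N2 and 0.162 and 0.646 in mir-83 at day 12, and its day 4 groups overlapped (-1.55 ± 0.84, adjusted p = 0.281). For end-3 the values were 1.04 and 0.786 CPM in N2 and 0.725 and 0.468 in mir-83 at day 4, and 1.08 and 1.13 in N2 and 1.59 and 1.03 in mir-83 at day 12, with mutant day 4 values below the other 6 and a change of -0.63 ± 0.71 (adjusted p = 0.606). The upstream gene med-1 had 0.130 and 0.117 CPM in N2 and 0 and 0 in mir-83 at day 4, and 0 and 0.0444 in N2 and 0 and 0.161 in mir-83 at day 12, and med-2 had 0.174 and 0.117 CPM in N2 and 0 and 0 in mir-83 at day 4, and 0.0257 and 0.0667 in N2 and 0.108 and 0.182 in mir-83 at day 12. Both gave 0 reads in mir-83 day 4 and 3 or 4 reads in each N2 day 4 library. The pooled N2 day 4 level was 1.43-fold the floor of 3 counts for med-1 and 1.63-fold for med-2. These values leave out the counting error of N2, so they are no bounds. The 2 med genes are known to be near-identical, and how reads divide between them is uncertain. The maternal activator skn-1, chosen after its values were seen, stood at 105 and 99.7 CPM in young N2 worms and at 211 and 157 in young mutants. At day 12 skn-1 had 215 and 158 CPM in N2 and 165 and 146 in mir-83, so that both N2 day 4 libraries lay below all others. That order did not hold on plain library sizes. The day 4 change of skn-1, 0.83 ± 0.23, did not pass (adjusted p = 0.0690) and was -0.02 with plain library sizes.

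**Figure D2:**
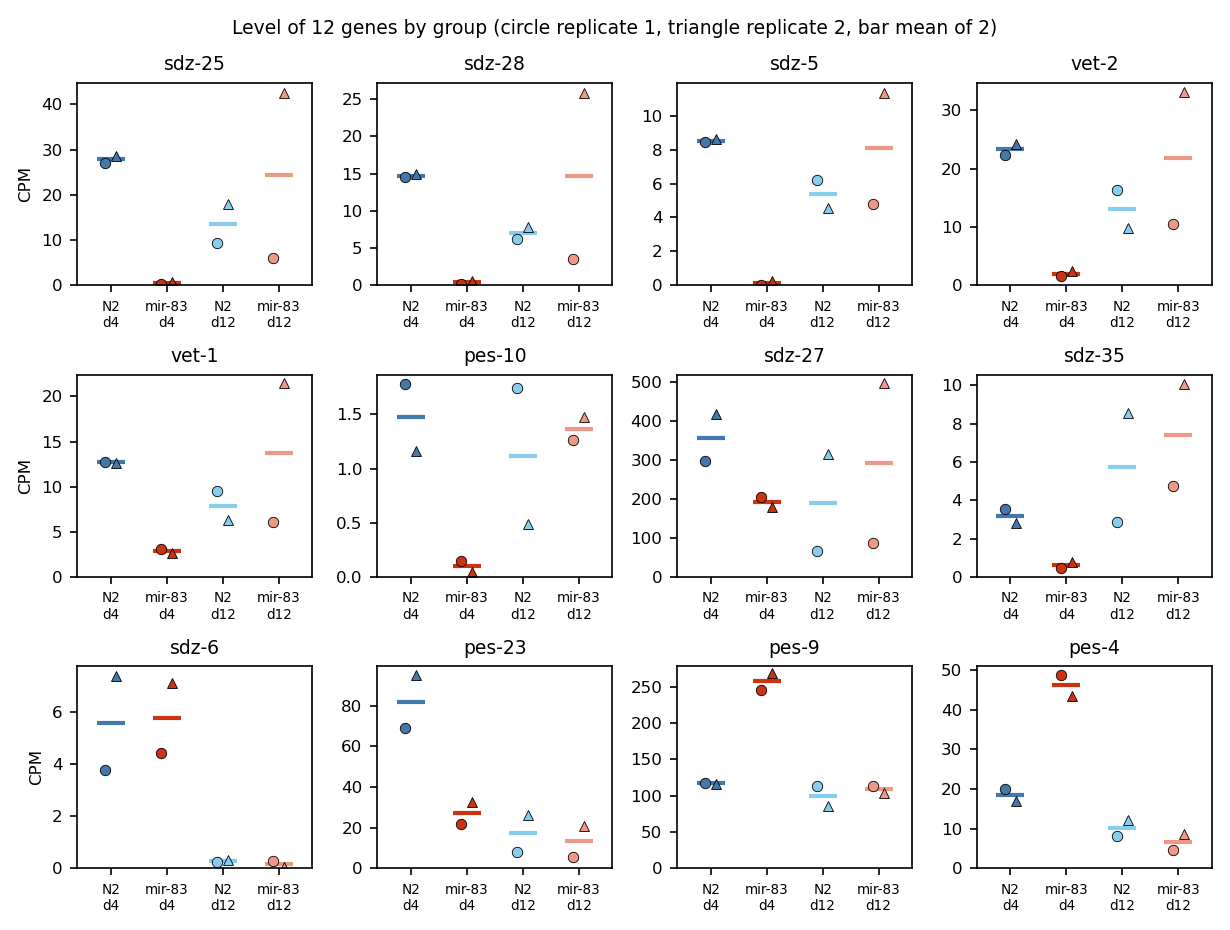
CPM on a linear axis from 0 in the 4 groups for 12 of the genes, with circles for replicate 1, triangles for replicate 2 and bars for the mean of both. In sdz-25, sdz-28, sdz-5, vet-2 and pes-10 the mir-83 day 4 points lie near 0, sdz-6 is low at day 12 in both strains, and pes-9 and pes-4 are highest in mir-83 day 4. In 7 panels (sdz-25, sdz-28, sdz-5, vet-2, vet-1, sdz-27 and sdz-35) the top point is mir-83 day 12 replicate 2.

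The day 4 calls rested on both libraries of each group. On leaving out any of these 4 libraries most calls were lost, among the early zygotic genes and over all genes. The median log2 fold change of the 42 genes then tested was -2.53 without mir-83 day 4 replicate 1 and -3.65 without replicate 2. Over all tested genes it was -0.21 and -0.11. Without N2 day 4 replicate 1 or 2 the medians were -2.75 and -3.04, against -0.02 and -0.20 over all tested genes. All 15 genes kept their direction in these 4 fits. A fit without the replicate block called 5 genes, all lower.

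Lists of related genes differed in direction at day 4. Over all 15874 tested genes 4.42% rose and 2.62% fell. With plain library sizes 210 of all tested genes rose and 3825 fell, and DESeq2 called 1502 higher and 1128 lower. Of 25 maternal regulators of the early embryo, 6 rose and 0 fell, among them the RNA-binding protein gene mex-5 (1726 and 1478 CPM in mir-83 day 4 against 424 and 534 in N2 day 4; 1.71 ± 0.36), mex-1 (1.85 ± 0.37) and the kinase gene lit-1 (1.34 ± 0.29). The list median was 1.02 in the replicate 1 pair and 0.65 in the replicate 2 pair. With plain library sizes 0 maternal regulators rose and 5 fell, and DESeq2 called 10 higher and 1 lower. Of 18 oocyte and eggshell genes 2 rose, the eggshell proteoglycan gene cpg-2 (1.93 ± 0.36) and the pumilio-type gene puf-3 (1.71 ± 0.35), while 1 rose and 1 fell with plain library sizes and DESeq2 called 8, all higher. The summed level of these 18 came to 37229.7 and 40125 CPM in the young mutants, with a range of 9847 to 14068 over the remaining libraries, and none of the 18 was at 0 reads anywhere. Of 15 germline and meiosis markers 5 rose and 0 fell, including daz-1 (1.64 ± 0.30), the helicase gene glh-1 (1.35 ± 0.25) and the translational repressor gene gld-1 (1.54 ± 0.29), and with plain library sizes 1 rose and 8 fell. None of 11 sperm markers passed in edgeR or in DESeq2 at day 4 (smallest adjusted p in edgeR 0.330), and their medians were -1.32 and 0.43 in the 2 pairs. The part of these lists in the level of the early zygotic genes was not tested.

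Genes that act later in the embryo also included some that fell. Over all 15874 tested genes 2.62% fell and 4.42% rose in edgeR, and DESeq2 called 1128 lower and 1502 higher. Of 15 later embryonic genes 3 fell at day 4 and 0 rose: the lipocalin-related lpr-3 (0.145 and 0.375 CPM in mir-83 day 4 against 5.65 and 7.22 in N2 day 4; -4.57 ± 0.79), sym-1 (-3.18 ± 0.57) and the fibrillin-like fbn-1 (-2.73 ± 0.60), all of the embryonic extracellular matrix. The list medians were -0.55 and -0.86. Of 20 tested zygotic transcription factor genes of other lineages, 1 fell, the proneural gene lin-32, without a read in either young mutant library and at 0.739 and 0.845 CPM in the N2 ones. With plain library sizes 5 fell, and 6 of the later embryonic genes did, where 3825 of all 15874 tested genes fell. DESeq2 called 2 of the factor genes of other lineages lower and, of the later embryonic genes, 5 lower and 1 higher. Of 11 tested transcription factor genes of endoderm and mesoderm, a list that holds end-1 and end-3 too, 0 passed in edgeR, 1 fell with plain library sizes and DESeq2 called 1 higher and 1 lower. The most abundant, the gut factor gene elt-2, which the adult intestine also expresses, had 15.1 and 16.6 CPM in mir-83 day 4 against 13.3 and 17.1 in N2 day 4.

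**Figure D3:**
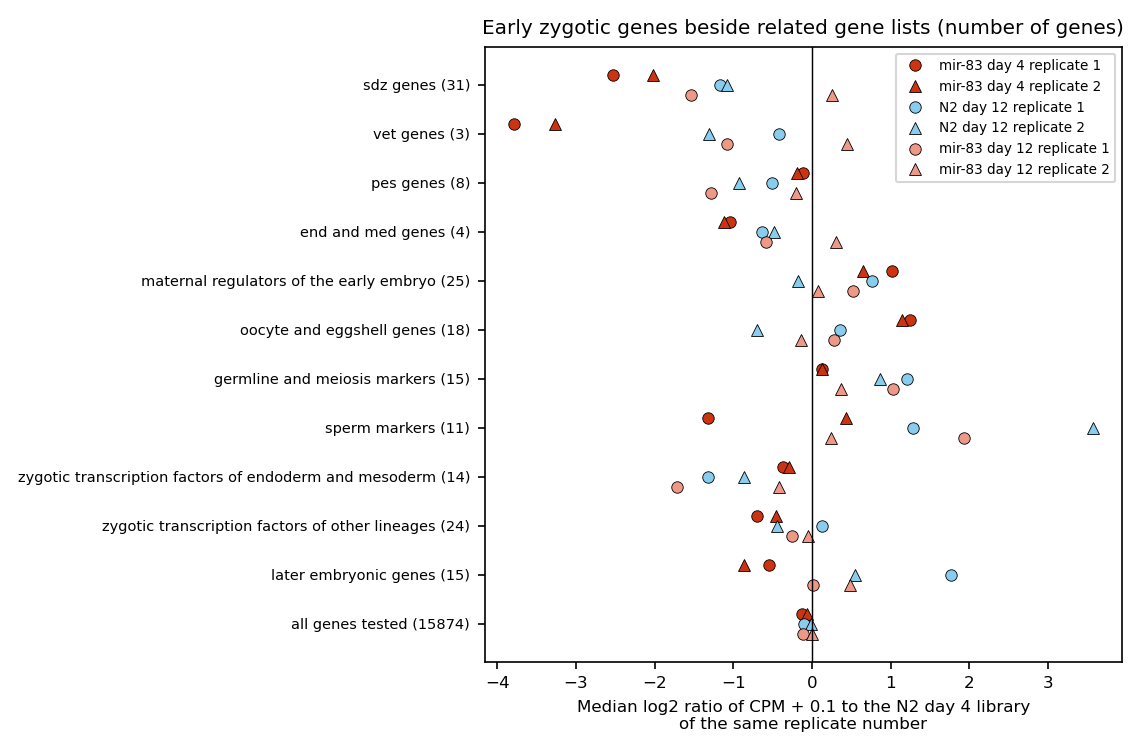
Median log2 ratio of CPM + 0.1 to the N2 day 4 library of the same replicate number, for the early zygotic genes by family, for 7 related lists and for all tested genes, with circles for replicate 1 and triangles for replicate 2. At mir-83 day 4 the sdz genes lie at -2.53 and -2.02 and the oocyte and eggshell genes at 1.25 and 1.14, and the sdz genes of mir-83 day 12 lie at -1.54 in replicate 1 and 0.25 in replicate 2.

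At day 12 the strains were compared in old adults, and 0 of the 41 tested genes passed, as did 0% of all tested genes (307 genes at an unadjusted p under 0.05, of which 0 were early zygotic; DESeq2 called 4, also 0 early zygotic). The replicates went in opposite directions. Between the replicate 1 libraries the mutant was below N2 in 34 of the 46 genes, with a median log2 ratio of -0.43, and between the replicate 2 libraries it was above N2 in 39, with a median of 1.07. As many as 29 of the 46, or 63.0%, were below in replicate 1 and above in replicate 2, and 27.6% of all tested genes were. Both mutant libraries lay below both N2 libraries in 1 gene and above in 2, where 8.25% and 5.48% of all tested genes did so. The mutant's replicate 2 library was above both N2 day 12 libraries in 33 of the 46 genes (71.7%, against 34.8% of all tested genes), and in 17 it was the highest of all 8 libraries (37% against 10.2%). The mutant's replicate 1 library was below both N2 day 12 libraries in 20 (43.5% against 37.3%).

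Single genes showed the same split. The ratio of sdz-28 at day 12 was -0.79 (log2) in replicate 1 and 1.71 in replicate 2, that of vet-2 -0.63 and 1.75, and that of pes-10 -0.43 and 1.42. Their fitted changes were 0.68 ± 0.72, 0.58 ± 0.59 and 0.56 ± 0.77, smaller than the spread between the replicates. For sdz-25 the ratios were -0.62 and 1.24 and the fitted change 0.51 ± 0.62. The ratios of sdz-27 were 0.41 and 0.66, both above 0. Other lists also moved between the mutant libraries. The 11 sperm markers were all above N2 in replicate 1 (median 0.87) and all below in replicate 2 (median -3.26), with a summed level in mir-83 day 12 of 254 and 34.1 CPM against 135 and 256 in N2 day 12. All 18 oocyte and eggshell genes were above N2 in replicate 2 (median 0.42) and 13 were below in replicate 1 (median -0.12). Of 25 maternal regulators 19 were below in replicate 1 and 21 above in replicate 2 (medians -0.26 and 0.32), and of 15 later embryonic genes 14 were below in replicate 1 and 10 above in replicate 2 (medians -1.72 and 0.11). Over all 15874 tested genes 7697 were below and 8141 above in replicate 1, and 8141 below and 7723 above in replicate 2. Below in replicate 1 and above in replicate 2 were 72.2% of the oocyte and eggshell genes and 64% of the maternal regulators. So were 66.7% of the later embryonic genes, 13.3% of the germline and meiosis markers and 0% of the sperm markers. These shares were 63.0% for the early zygotic genes and 27.6% for all tested genes. The 15 germline and meiosis markers had medians of -0.15 and -0.38. What part sperm, oocytes or embryo number had in the split of the early zygotic genes was not tested. Each of these lists had 0 genes past the threshold, in DESeq2 as well.

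**Figure D4:**
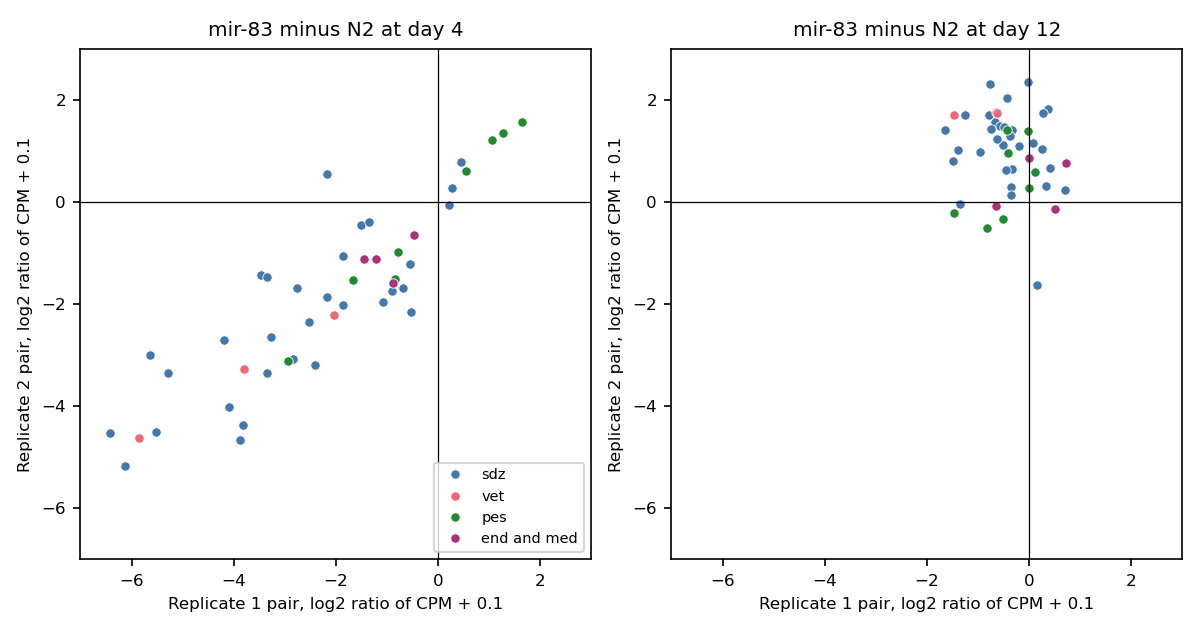
Each point is 1 of the 46 genes, with the log2 ratio of mir-83 to N2 (CPM + 0.1) between the replicate 1 libraries on the horizontal axis and between the replicate 2 libraries on the vertical axis, at day 4 on the left and day 12 on the right. At day 4 most points lie below 0 on both axes (39 of 46 on each), and at day 12 29 of 46 lie below 0 on the horizontal and above 0 on the vertical axis.

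Ageing of the wild type was followed between N2 day 4 and N2 day 12. Of the 41 tested genes 2 fell and 0 rose, against 2.39% and 2.11% of all tested genes (4.5% in either direction). They were sdz-6, with a change of -4.27 ± 0.93 (adjusted p = 0.0441), and pes-23, with -2.48 ± 0.45 (adjusted p = 0.0312). For sdz-6 the level went from 3.78 and 7.40 CPM to 0.231 and 0.333, and for pes-23 from 69.0 and 95.0 to 8.16 and 26.3, with no overlap in either. Most other genes were lower at day 12 without passing. Both day 12 libraries lay below both day 4 libraries in 33 of the 46 genes and above them in 2 (end-3 and sdz-38), where 30.1% and 29.5% of all tested genes did so. The medians were -0.98 in replicate 1 and -1.0 in replicate 2, against -0.10 and -0.01 over all tested genes. Examples were sdz-1 (-2.36 ± 0.77), sdz-21 (-1.93 ± 0.64), sdz-24 (-2.40 ± 0.80) and sdz-33 (-1.55 ± 0.67), with adjusted p from 0.105 to 0.176. All 3 vet genes were lower at day 12, with changes of -0.66 ± 0.63, -0.78 ± 0.57 and -0.60 ± 0.90 for vet-1, vet-2 and vet-6, and none passed. Both calls were lost on leaving out either N2 day 12 library, either mir-83 day 4 library or replicate 1 of N2 day 4, and 1 was left on leaving out replicate 2 of N2 day 4. With plain library sizes pes-23 alone passed, and the split of all calls moved from 335 higher and 380 lower to 660 and 290. DESeq2 called 5 of the early zygotic genes, all lower, and of all 15874 tested genes 1737 higher and 1482 lower. The fit without the replicate block called 0 early zygotic genes and 136 of all tested genes.

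Related lists went other ways with age in N2. Over all 15874 tested genes 2.11% rose and 2.39% fell, and in 29.5% both day 12 libraries lay above both day 4 libraries. DESeq2 called 1737 of all tested genes higher and 1482 lower, and plain library sizes 660 and 290. Of 15 germline and meiosis markers 3 rose, among them glh-1 (1.60 ± 0.25), and 14 were above day 4 in both libraries. Of the 25 maternal regulators 1 rose, the polarity kinase gene par-1 (1.30 ± 0.28), and the list medians were 0.77 and -0.18. The later embryonic genes had medians of 1.77 and 0.54, the sperm markers 1.28 and 3.57, and the endoderm and mesoderm factors -1.32 and -0.86, with 0 past the threshold in each. DESeq2 called 9 germline and meiosis markers, 4 maternal regulators, 5 later embryonic genes, 6 sperm markers and 1 factor of other lineages higher, and 4 endoderm and mesoderm factors lower. On plain library sizes 7 germline and meiosis markers and 2 maternal regulators rose. Neither the oocyte and eggshell genes (medians 0.36 and -0.70) nor the factors of other lineages (0.12 and -0.44) had a gene past the threshold in edgeR.

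Ageing of the mutant was followed between mir-83 day 4 and mir-83 day 12, which shares the mir-83 day 4 libraries with the day 4 comparison. Here 17 of the 41 tested genes rose and 4 fell, against 12.8% and 15.1% of all tested genes (27.9% in either direction). Those that rose were 13 sdz genes, all 3 vet genes and pes-10. The largest changes with reads in both groups were those of sdz-5 (5.69 ± 0.99), sdz-25 (5.34 ± 0.78), vet-6 (5.28 ± 1.19) and sdz-28 (4.98 ± 0.87). Changes of genes not past the threshold between the strains at day 4 were those of sdz-15 (4.21 ± 1.25), sdz-35 (3.55 ± 0.70) and vet-1 (2.21 ± 0.67). Levels of sdz-35 at day 12 in the mutant, 4.74 and 10.1 CPM, were also above both N2 day 4 libraries. Both day 12 libraries lay above both day 4 libraries in 27 of the 46 genes and below them in 7, where 33.8% and 32.7% of all tested genes did so. These counts were 32 and 4 with plain library sizes, against 56.3% and 15.8% of all tested genes. The medians were 1.05 and 1.57, against -0.05 and 0.08.

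The 4 genes that fell with age in the mutant were pes-4 (-2.86 ± 0.45), pes-7 (-2.41 ± 0.49), pes-9 (-1.25 ± 0.24) and sdz-6 (-5.18 ± 1.00), the last with 4.42 and 7.12 CPM at day 4 and 0.270 and 0.0404 at day 12. With plain library sizes 20 genes rose and 2 fell, and the split of all calls moved from 2028 higher and 2403 lower to 5917 and 976. On leaving out either mir-83 day 4 library most calls were lost, among the early zygotic genes and over all genes. The median log2 fold change of the 42 genes then tested was 2.41 without replicate 1 and 2.91 without replicate 2. Over all tested genes it was 0.14 and 0.04. All 21 genes kept their direction in both fits. The list counts that follow stand beside 12.8% higher and 15.1% lower over all 15874 tested genes. Plain library sizes called 5917 of all tested genes higher and 976 lower, and DESeq2 called 3471 higher and 2856 lower. Several list counts lie near these shares. Among the lists, 8 of 18 oocyte and eggshell genes fell and 0 rose, such as the eggshell gene perm-2 (-2.53 ± 0.44), and with plain library sizes 2 fell and 2 rose. Of 25 maternal regulators 7 fell, such as mex-1 (-2.04 ± 0.37), and 3 rose, such as the beta-catenin gene sys-1 (1.97 ± 0.34), and with plain library sizes 1 fell and 11 rose, while DESeq2 called 4 lower and 3 higher. Of 15 later embryonic genes 5 rose, among them lpr-3 (4.93 ± 0.79), and 0 fell, and with plain library sizes 9 rose. Of 20 factor genes of other lineages 5 rose and 2 fell, the latter including the hypodermal GATA factor gene elt-3 (-2.35 ± 0.61), and with plain library sizes 7 rose and 0 fell. Of 11 endoderm and mesoderm factors 2 fell, pha-4 (-2.65 ± 0.66) and elt-2 (-1.72 ± 0.52), and with plain library sizes 1 rose and 0 fell, while DESeq2 called 5 lower. Of 15 germline and meiosis markers 3 rose, such as the synaptonemal complex gene syp-1 (1.97 ± 0.32), and 3 fell, such as daz-1 (-1.33 ± 0.29), with plain library sizes 9 rose and 0 fell, and DESeq2 called 4 higher and 1 lower. The sperm markers had 0 past the threshold in edgeR, with medians of 3.15 and 0.07, while 4 rose with plain library sizes and DESeq2 called 5 higher.

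**Figure D5:**
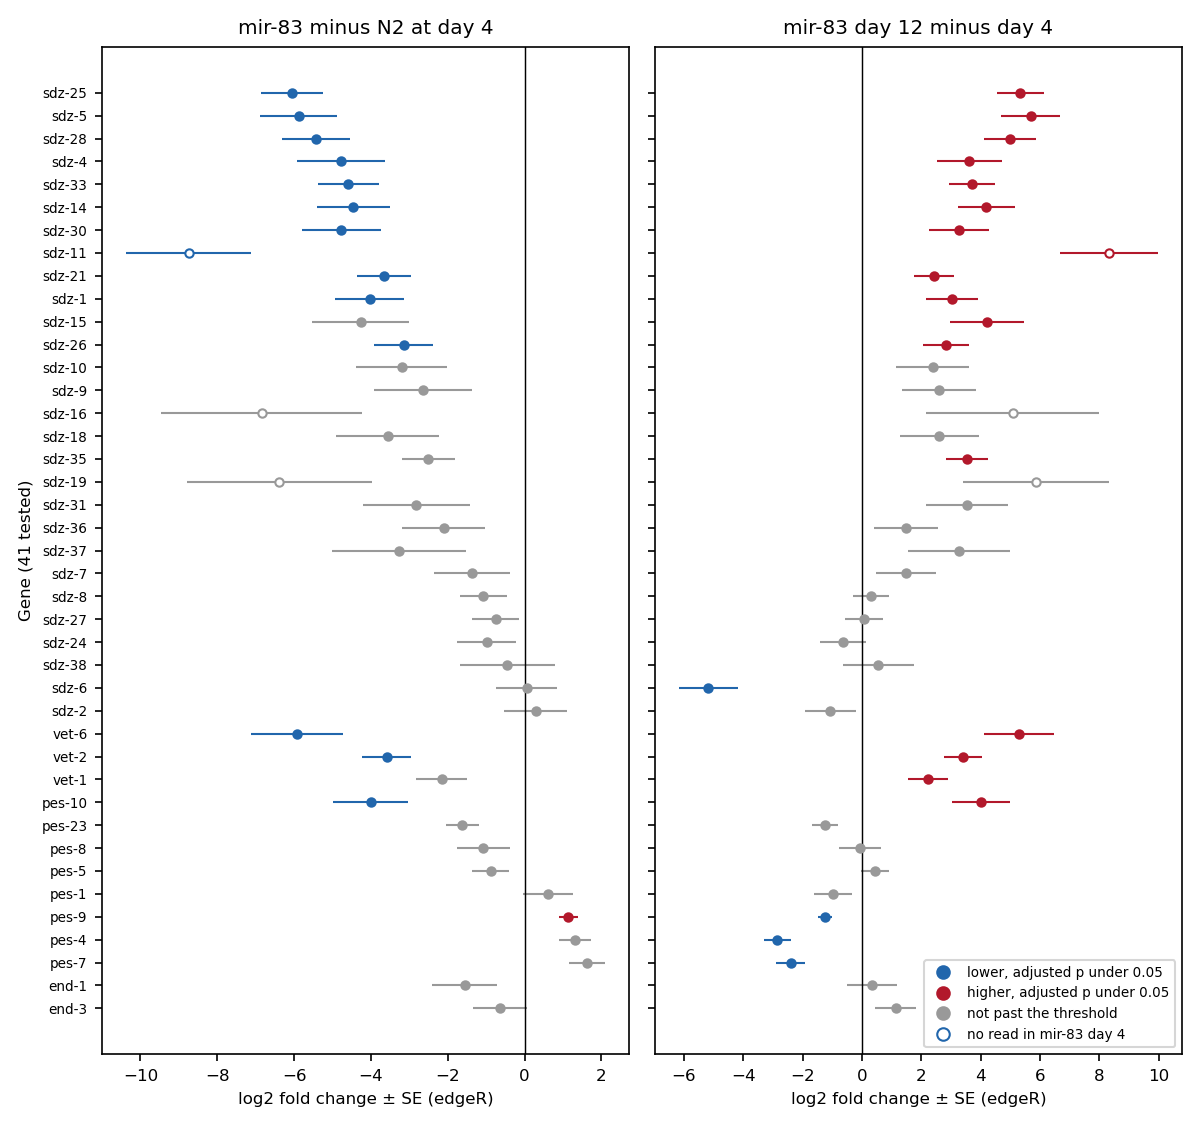
Log2 fold change from edgeR for the 41 tested genes, with an approximate standard error derived from the F statistic of the test. The left panel is mir-83 minus N2 at day 4 and the right panel mir-83 day 12 minus day 4, coloured by whether the adjusted p was under 0.05. The left panel shows 14 lower and 1 higher gene and the right panel 17 higher and 4 lower; both share the mir-83 day 4 libraries. Open circles mark sdz-11, sdz-16 and sdz-19, which had 0 reads in mir-83 day 4, so that their fitted value depends on the prior count and is no bound.

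Whether the strain difference depended on age was tested as the day 12 effect minus the day 4 effect. None of the 41 genes passed in edgeR, as 0% of all tested genes did, with 22 early zygotic genes and 2919 of all tested genes at an unadjusted p under 0.05. The gene nearest to the threshold was sdz-25, with a difference of 6.56 ± 0.98 (adjusted p = 0.0543), followed by sdz-28 (6.10 ± 1.10, adjusted p = 0.0581), sdz-33 (5.26 ± 1.01, adjusted p = 0.0636) and sdz-5 (6.30 ± 1.23, adjusted p = 0.0656). For vet-2 the difference was 4.17 ± 0.85 and for pes-10 4.55 ± 1.25. In pes-4, pes-7 and pes-9 it had the other sign (-1.96 ± 0.60, -2.38 ± 0.67 and -1.01 ± 0.34). DESeq2 called 19 of the genes, 17 higher and 2 lower, among 1317 of all tested genes. With plain library sizes edgeR called 17, all higher, among 1751 of all tested genes (1642 higher and 109 lower). Without the filter on low counts it called 7, all higher, among 313 (89 higher and 224 lower). On leaving out either mir-83 day 12 library edgeR called some genes, among the early zygotic genes and over all genes. The median difference of the early zygotic genes then tested was 3.97 without replicate 1 and 2.62 without replicate 2. Over all tested genes it was 0.05 and 0.01. The calls thus turned on the tool, on the scaling, on the filter and on the 2 mutant day 12 libraries.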

How the data were processed

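Total RNA came from whole worms by Trizol extraction, per the labels' protocols. Raw read counts of transcripts were deposited by the authors as 1 sheet per replicate number, with WormBase sequence names in the first and RefSeq accessions in the second. Bowtie2, edgeR and the build ce11 are named without versions in the submitters' processing notes; the sources used here do not give how reads were counted or whether strand was used, so overlapping and near-identical genes may share reads. Transcripts were matched to genes of the WBcel235 annotation and summed: 215 of 30443 lines (0.091% of reads) and 196 of 29023 (0.229%) matched none. Libraries held 20270542 to 41181094 reads.

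TMM normalisation and filterByExpr left 15874 of 18339 genes. Tests used edgeR 4.0.16 in R 4.3.3 (glmQLFit, glmQLFTest). All 8 libraries entered 1 model of 4 group means with the replicate number as a block (3 residual degrees of freedom, common biological coefficient of variation 0.429). Tests are two-sided and adjusted over all tested genes within each of 5 comparisons. Each ± is an approximate standard error, the absolute log2 fold change divided by the square root of the F statistic of the test. Same-numbered libraries deviated together in all 6 pairs of groups (correlations 0.119 to 0.416), and the sheets rest on different annotations, so the numbers were kept as pairs in the main fit. Counts of genes whose libraries lay below or above others compare CPM across both sheets. They leave the pairs aside and may carry differences between the annotations. Ratios within a replicate are of CPM + 0.1. Alternatives were other size factors, no filter, no block, 4 libraries at a time, DESeq2 1.42.0 and leaving out each library. The fit was run on simulated counts with changes set in the more abundant genes only and without a replicate effect. That run does not speak for genes at low counts.

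The genes and the 7 related lists were chosen with earlier results of these data known. Values per library are given for genes with a mean of at least 50 reads or past the threshold in any comparison and for the end and med genes, and list genes are named where they pass (up to 3 per list and comparison) or else for abundance. Promoter and protein sequences were not used here.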

Additional observations from a re-analysis of the deposited data

How the results depend on the processing

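Among the early zygotic genes no called direction reversed under any alternative. At day 4, where 15 passed, 5 passed without the replicate block and 25 with only the 4 libraries compared, and leaving out 1 library gave 0 to 21. In N2 ageing, where 2 passed, 1 passed with plain library sizes, 0 without the replicate block and 5 with DESeq2, and leaving out 1 library gave 0 to 3. In the ageing of the mutant, where 21 passed, leaving out 1 library gave 1 to 22. For the difference of the effects, where 0 passed, 1 passed with DESeq2-type size factors in edgeR, 17 with plain library sizes, 7 without the filter and 19 with DESeq2, and leaving out 1 library gave 0 to 13. At day 12 it gave 0 to 0 (all genes 0 to 0), and DESeq2 called 4 of all genes.

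Counts over all genes moved too. At day 4, in place of 1118, there were 4035 with plain library sizes (210 higher and 3825 lower), 322 without the replicate block, 4874 with 4 libraries and 2630 with DESeq2, and 0 to 2510 with 1 library left out. In N2 ageing, in place of 715, there were 1091 without the filter, 136 without the block, 1328 with 4 libraries and 3219 with DESeq2 (0 to 2473 with 1 left out). In the ageing of the mutant, in place of 4431, there were 6893 with plain library sizes (579 to 5649 with 1 left out). The difference of effects called 34 with DESeq2-type size factors, 1751 with plain library sizes, 313 without the filter and 1317 with DESeq2 (0 to 553). The cause of these moves was not tested. A lone library left in a group is assumed to vary like the other groups. Low counts limit med-1, med-2, sdz-12, sdz-13 and sdz-20, which were not tested.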
